A study of Mus musculus with 8 samples.

Results

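The genes described here encode the subunits of respiratory complexes II, III and IV and of the ATP synthase, complex V, in mouse liver. They were taken by name from the GENCODE M21 annotation, as protein-coding genes whose symbols begin with Sdha to Sdhd, Uqcr, Cyc1, Cox4 to Cox8, Atp5, mt-Co, mt-Atp or mt-Cytb. The rule found 55 genes of the 34547 measured, 4 for complex II, 10 for complex III, 21 for complex IV and 20 for complex V. Of these, 49 are nuclear genes and 6 lie on the mitochondrial genome. In addition, 8 pseudogenes carried matching symbols and were left out. Enough reads for a test were found for 48 members, and the other 7 (Cox4i2, Cox6a2, Cox7a1, Cox7b2, Cox8b, Cox8c and a second entry named Atp5o, a read-through transcript) were close to 0 or at 0.

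Liver RNA came from 4 mice whose livers were transduced with mouse Nudt7 by AAV, a recombinant virus used to bring a gene into tissue, and from 4 control mice that received AAV with GFP. All 8 mice were C57BL/6J and received 2.5e+11 viral particles in 150 µl through the tail vein at 8 weeks of age. Collection followed after 3 to 4 weeks, when the mice were 11 to 12 weeks old and had fasted for 24 h, so that both groups carry a vector and both were fasted. Nudt7 encodes a peroxisomal hydrolase of coenzyme A and acyl-CoAs, and the study asked how its overexpression changes the transcriptome of the fasted liver. The sources used here do not give the promoter of the vectors, their serotype or the sex of the mice. These are whole-liver samples, in which fewer cells of a type and less RNA per cell cannot be told apart.

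The respiratory chain of the inner mitochondrial membrane passes electrons from NADH and succinate to oxygen and pumps protons, and the ATP synthase makes ATP from the proton gradient. Complex II oxidises succinate, complex III passes electrons from ubiquinol to cytochrome c, and complex IV, cytochrome c oxidase, reduces oxygen. Cytochrome b of complex III, the core subunits of complex IV and part of the membrane sector of the ATP synthase are encoded by mitochondrial DNA, and the remaining subunits by nuclear genes, so that assembly draws on both genomes. In the fasted liver the chain reoxidises the carriers reduced by fat oxidation.

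The sequences that matter for reading the values are of 3 kinds. The first is the stretch that mt-Atp8 and mt-Atp6, subunits of the ATP synthase membrane sector, share on the mitochondrial genome (GRCm38, chrM:7927-7969, plus strand), where 43 bases belong to both transcripts. The capitals mark the start codon of mt-Atp6 on the left and the stop codon of mt-Atp8 on the right, and reads within the stretch cannot be given to either gene by sequence.
mt-Atp8 and mt-Atp6 overlap: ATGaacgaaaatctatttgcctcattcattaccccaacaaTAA
The second kind is a nuclear copy of mitochondrial DNA on chromosome 1. Its annotated pseudogene Gm28661 matched mt-Co2 at 681 of 681 aligned bases, Gm28437 matched mt-Co3 at 783 of 783, and Gm10925 matched mt-Atp6 at 678 of 678, with 0 mismatches in each. The first 60 bases of mt-Co2 (chrM:7013-7072, plus strand) and of its copy (chr1:24615506-24615565, minus strand) are shown from the GENCODE M21 transcripts, with no capitals because no base differs.
mt-Co2: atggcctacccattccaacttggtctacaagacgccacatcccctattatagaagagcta
Gm28661: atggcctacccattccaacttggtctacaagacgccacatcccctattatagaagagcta

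The third kind is a gene family in which the copies can be told apart. Atp5g1, Atp5g2 and Atp5g3 encode subunit c of the membrane rotor, and the last 225 coding bases of the 3 genes translate into the same protein. A stretch of 75 of these bases is shown for each (GRCm38, minus strands, chr11:96073561-96073635, chr15:102665092-102665166 and chr2:73909222-73909296). Capitals mark the 18 positions at which the genes are not all alike.
Atp5g1: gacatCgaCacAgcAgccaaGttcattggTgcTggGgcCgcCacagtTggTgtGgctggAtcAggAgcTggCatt
Atp5g2: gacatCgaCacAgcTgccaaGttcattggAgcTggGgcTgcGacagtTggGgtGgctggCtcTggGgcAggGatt
Atp5g3: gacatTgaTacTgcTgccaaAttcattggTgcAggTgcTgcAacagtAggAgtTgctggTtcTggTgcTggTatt
Over the 225 bases Atp5g1 and Atp5g2 differed at 34, Atp5g1 and Atp5g3 at 45, and Atp5g2 and Atp5g3 at 48, and no pair had a run of 31 bases in common there. Reads from these genes can therefore be separated although the mature subunit is the same.

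Nuclear subunit genes are known targets of GABP, NRF1 and YY1, factors that act near the start site. Promoter windows of RefSeq (GRCm38.p6, 250 bases before to 50 after the start) were matched by symbol for 34 of the 49 nuclear members. The letters CCGGAAG, the core that GABP and other Ets factors read, stood on either strand in 12 of the 34 (35.3%), against 9.93% of all 27025 genes in the table. The letters GCATGCG, the middle of the NRF1 motif, stood in 8 (23.5%, against 4.01%), and AAGATGG, which YY1 reads, in 3 (8.82%, against 7.28%). In none of the 34 did matches of 2 of these motifs overlap. A match is a run of letters and no measurement of binding. The window of Uqcr11, the complex III subunit with the smallest p-value, is shown from 150 to 21 bases before its start (chr10:80406842-80406971, minus strand), with the CCGGAAG match in capitals; its GCATGCG match lies outside the printed stretch.
Uqcr11: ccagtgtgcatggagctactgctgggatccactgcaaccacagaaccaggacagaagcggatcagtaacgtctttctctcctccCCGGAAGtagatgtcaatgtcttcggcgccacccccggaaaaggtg
The 12 tested members with this motif had a median log2 fold change between the groups of 0.40, and the 19 tested members whose window lacked it had 0.33. The medians without the third Nudt7 liver, described next, were 0.03 and 0.01, so the members with and without the motif lay close together by either measure.

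The libraries held 11187806 to 23640734 estimated reads, and 13678 genes were tested. Nudt7 itself stood at 1301, 1599, 3569 and 1555 CPM (reads per 1e+06, scaled between libraries) in Nudt7 replicates 1 to 4 and at 60.7 to 79.9 CPM in the GFP livers, as the labels have it, although reads of the vector and of the mouse gene are not separated. Nudt7 replicate 3 stood apart from the rest: its first principal component score was 63.1 and those of the other 7 livers ran from −19.9 to 2.83. In this library genes with short transcripts were high, it had the highest Nudt7 level, and it held 1814 CPM of red blood cell markers against 303 to 642 CPM elsewhere (6 genes, of which Slc4a1 was under 1 CPM in all 8 livers). Fold changes and list medians are therefore given with and without it, other than those of genes summed with a near-identical copy. Hepatocyte markers summed to 61463 to 95099 CPM in the 8 livers, and striated muscle markers to 0.39 to 2.09 CPM, with 6 of 7 genes under 1 CPM in each liver and Myh4 at 0. Cholangiocyte markers summed to 31.8 to 42.5 CPM in Nudt7 livers and 17.4 to 29.4 CPM in GFP livers. Endothelial cell markers were lower with Nudt7, at 293 to 314 CPM against 319 to 352 CPM. Kupffer cell markers were highest in Nudt7 replicate 3, at 197 CPM against 81.3 to 155 CPM elsewhere. Stellate cell markers overlapped between the groups. The part of these cell types in the results below was not tested.

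No subunit gene passed the test between Nudt7 and GFP livers. By edgeR's quasi-likelihood test with Benjamini-Hochberg adjustment, 0 of the 48 tested members passed an adjusted p of 0.05, where 0.117% of all genes tested passed and 0.0439% passed as higher. DESeq2 and limma-voom also called 0 members, with 1.19% and 0.0585% of all genes called. At an unadjusted p under 0.05 there was 1 member, Uqcr11, where 8.28% of all genes tested had such a p and 4.25% had it with a positive fold change. Adjusted p-values of the members ran from 0.581 to 0.993.

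The fold changes nevertheless leaned one way, and the size of the lean came mostly with 1 library. They were positive for 47 of 48 members, against 49.8% of all genes tested, with a median of 0.32 log2 units against −0.00. The exception was mt-Atp8 at −0.03. Without Nudt7 replicate 3, 36 members were positive and 12 negative (50.9% of all genes tested were positive), and the median was 0.03. Again 0 members passed (0.0933% of all genes did), and 1 had an unadjusted p under 0.05 (8.29% of all genes did). The members move together within a library, so these counts are not counts of independent events.

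**Figure D1:**
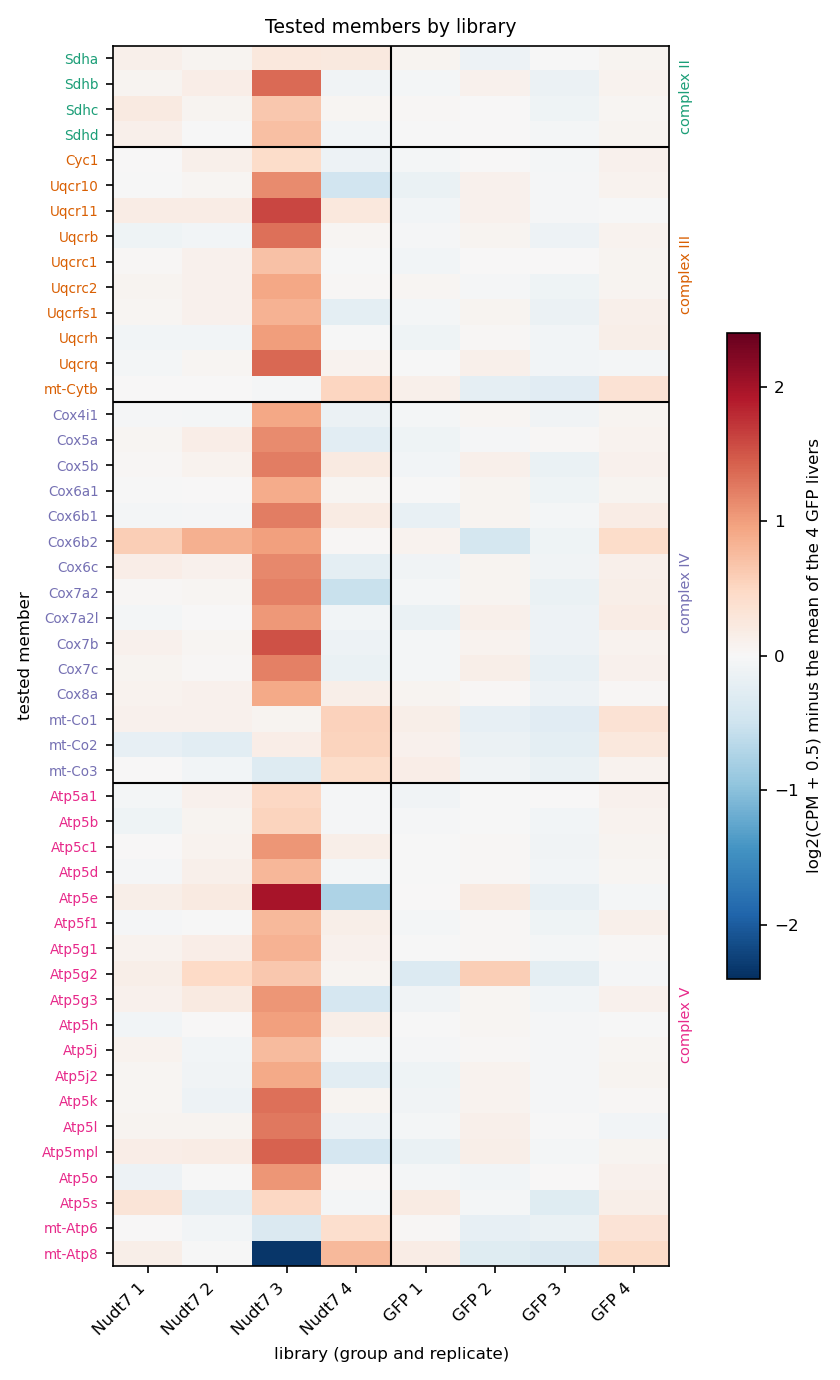
Level of the 48 tested members (rows, coloured and ruled by complex) in the 8 livers (columns), as log2(CPM + 0.5) minus the mean of the 4 GFP livers, with red for higher and blue for lower. The column of Nudt7 replicate 3 is red for the 42 nuclear members, from 0.25 for Sdha to 1.98 for Atp5e, while among the mitochondrially encoded members mt-Co2 (0.15) and mt-Co1 (0.07) are slightly red and the other 4 are blue, with mt-Atp8 lowest at −2.34.

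In that library the level of each of the 42 nuclear members tested was the highest of the 8 livers in CPM, and of 37 in TPM (transcripts per 1e+06, a level corrected for transcript length). Of all genes tested, 28.3% were highest there in CPM. Among nuclear genes tested the share was 56.5% under 600 bases and 68.2% at 600 to under 1000. It was 58.7% at 1000 to under 1500 bases and 18.1% at 1500 or more. A share of all genes in TPM was not computed. Relative to the mean of the GFP livers, the nuclear members had a median of 0.997 log2 units in Nudt7 replicate 3 and of −0.07 to 0.07 in the other 7 livers, GFP livers included. For 38 of the 42, the other 3 Nudt7 livers overlapped the GFP livers in CPM. The remaining 4 were Sdha, Uqcr11, Cox8a and Atp5g1, whose 4 Nudt7 livers all lay above the 4 GFP livers in CPM. Groups were separate in this way for 5.75% of all genes tested, and with Nudt7 higher for 2.74%. The same 4 members were separate in CPM without replicate 3, where 9.2% of all genes were separate in either direction. In TPM, with all 8 livers, Uqcr11 was separate as well, but its lowest Nudt7 liver (319.3 TPM) lay just above its highest GFP liver (318.6 TPM). In the same measure Sdha, Cox8a and Atp5g1 overlapped between the groups.

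Complex II, succinate dehydrogenase, is built from nuclear genes alone. Its members had a median log2 fold change of 0.24, and of 0.09 without Nudt7 replicate 3. Sdha, the flavoprotein that binds succinate (chr13, 74322254 to 74350280), was at 339, 327, 370 and 365 CPM in Nudt7 replicates 1 to 4 and at 327, 286, 311 and 325 CPM in the GFP livers. Its lowest Nudt7 liver (327.4 CPM) lay just above the highest GFP liver (326.95 CPM). Its log2 difference was 0.17 (SE 0.12, 95% interval −0.09 to 0.42, edgeR adjusted p = 0.708), nearly the same as without replicate 3 (0.15). Sdha has the longest transcripts of the members, with a mean of 2664 bases, and in TPM Nudt7 replicate 3 was the lowest of the 8 (154 against 179 to 208).

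Sdhb, the iron-sulfur subunit, stood at 137, 144, 238 and 118 TPM in the Nudt7 group and at 127, 144, 127 and 130 TPM in the GFP group. The third Nudt7 liver was high and the other 3 lay among the controls. Its log2 fold change of 0.50 (SE 0.28, adjusted p = 0.664) became 0.06 without that liver. The membrane anchors Sdhc, at 166, 133, 177 and 130 against 150, 142, 125 and 126 TPM, and Sdhd, at 227, 204, 251 and 205 against 212, 216, 213 and 208 TPM, differed by 0.26 (SE 0.15, adjusted p = 0.664) and 0.23 (SE 0.17, adjusted p = 0.717) log2 units. Without replicate 3 these were 0.12 and 0.03, and the groups overlapped for both genes. The summed level of the 4 genes was 720 ± 74.4 TPM with Nudt7 and 666 ± 18.3 TPM with GFP (SD, n = 4 each), and 686 ± 39.0 TPM in the 3 Nudt7 livers other than replicate 3.

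In complex III the 9 nuclear members had a median log2 fold change of 0.30, which became 0.01 without Nudt7 replicate 3. Uqcr11, a small accessory subunit (chr10, 80402997 to 80406830), stood at 325, 319, 655 and 348 TPM in the Nudt7 group and at 275, 319, 314 and 284 TPM in the GFP group. In CPM the values were 63.4, 63.1, 172 and 66.5 against 53.3, 60.5, 54.7 and 55.8, so that the groups were separate with and without the third liver. The log2 fold change was 0.70 (SE 0.30, 95% interval 0.04 to 1.36, edgeR unadjusted p = 0.0384, adjusted p = 0.581), and 0.21 without that liver (95% interval 0.01 to 0.41, adjusted p = 0.554). Uqcr11 was the member with the lowest p in both fits, and it failed the adjustment in both.

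Uqcrq, the accessory subunit with the highest level among nuclear members of complex III, stood at 475, 504, 986 and 448 TPM against 466, 554, 511 and 448 TPM in GFP livers, and its log2 fold change, 0.50 (SE 0.28, adjusted p = 0.667), was 0.04 without the third liver. Uqcrc2, a core subunit with no redox centre, stood at 161.5, 157, 217 and 154 against 157, 152, 145 and 152 TPM (0.33, SE 0.19, adjusted p = 0.670; 0.08 without the third liver). The other core subunit, Uqcrc1, had the lowest level of these genes, with 76.0 to 94.3 TPM over the 8 livers. The redox subunits Cyc1 (cytochrome c1) and Uqcrfs1 (the Rieske iron-sulfur protein) differed by 0.13 (SE 0.14) and 0.24 (SE 0.20) log2 units, and by 0.01 and −0.01 without the third liver. For Uqcr10, Uqcrb and Uqcrh, the remaining accessory subunits, the values were 0.30, 0.44 and 0.29, and −0.12, −0.03 and −0.04 without it. All of the complex III members but Uqcr11 overlapped between the groups.

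Complex IV had the largest median of the 4 complexes for its nuclear members, 0.39 over 12 genes, and 0.02 without Nudt7 replicate 3. Differences between complexes were not tested, and the median transcript length of these 12 genes, 614 bases, was close to that of the nuclear complex III genes (546) and below that of complex II (1248). Cox5b, a subunit that binds zinc, stood at 286, 299, 492 and 290 TPM in the Nudt7 group and at 259, 317, 248 and 277 TPM in the GFP group. Its log2 fold change was 0.48 (SE 0.24, adjusted p = 0.642), and 0.12 without the third liver, which was again the high one.

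Cox8a, a small nuclear subunit (chr19, 7215153 to 7217616), stood at 120, 122, 213 and 126 CPM in Nudt7 livers and at 119, 115, 104 and 116 CPM in GFP livers. The separation of the groups rested on less than 1 CPM between the lowest Nudt7 liver (119.7) and the highest GFP liver (118.999). Its log2 difference was 0.35 (SE 0.18, 95% interval −0.05 to 0.76, adjusted p = 0.650), and 0.12 without the third liver. The other widely expressed nuclear subunits, Cox4i1, Cox5a, Cox6a1, Cox6b1, Cox6c, Cox7a2, Cox7b and Cox7c, and Cox7a2l, which is known for joining complexes III and IV in supercomplexes, had log2 fold changes of 0.25 (Cox4i1) to 0.56 (Cox7b). Without the third liver these 9 genes lay between −0.12 (Cox7a2) and 0.05 (Cox6b1). The most abundant nuclear member of complex IV was Cox6c, at 525 to 967 TPM over the 8 livers.

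Several complex IV subunits exist in forms used by different tissues, and the livers held the widely expressed forms. Cox4i1 stood at 485 to 729 TPM over the 8 livers, while Cox4i2, a form of lung and hypoxic cells, did not exceed 0.19 TPM. Cox6a1 stood at 480 to 671 TPM and Cox8a at 544 to 732 TPM, whereas Cox6a2, Cox8b and Cox7a1, the forms of heart and skeletal muscle, did not exceed 0.28, 1.69 and 3.97 TPM. Cox7b2 reached 0.42 TPM in 1 GFP liver and was listed at 0 in the other 7 livers, and Cox8c was listed at 0 in all 8. These 6 genes had too few reads for a test.

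Cox6b2, a form known from testis, was the exception among the tissue-specific forms in having enough reads for a test. It stood at 6.04, 6.93, 6.09 and 3.75 TPM in the Nudt7 group and at 3.47, 1.75, 2.89 and 4.997 TPM in the GFP group, far below Cox6b1 (350 to 595 TPM). The groups overlapped, through the fourth liver of each. The log2 fold change was 0.83 (SE 0.38, 95% interval −0.01 to 1.67, edgeR unadjusted p = 0.0520, adjusted p = 0.5995) and, unlike those of most members, stayed large without the third liver (0.67, 95% interval −0.24 to 1.57). The counts behind it were low, with 6 reads in the poorest library, and its GFP livers had the widest spread of the tested members, a coefficient of variation of 41.6%.

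**Figure D2:**
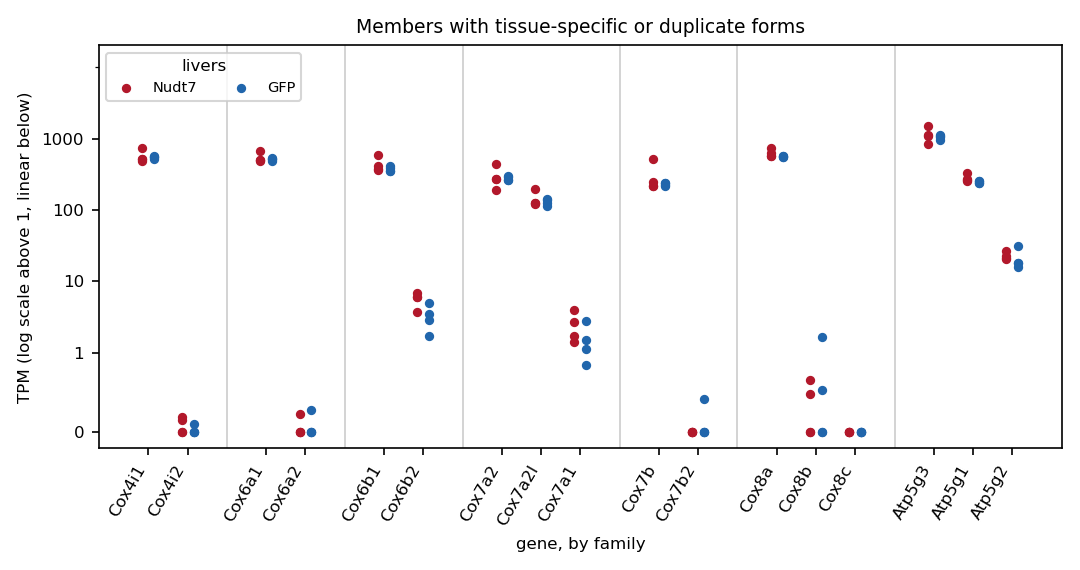
TPM of members that exist in several forms, by family along the horizontal axis, with 1 point per liver (red for Nudt7, blue for GFP) and a vertical axis that is logarithmic above 1 and linear below. Within each Cox family the form on the left stands above 100 TPM in all 8 livers, and Atp5g3 stands above Atp5g1, which stands above Atp5g2.

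In the ATP synthase the 17 nuclear members had a median log2 fold change of 0.33, and 0.02 without Nudt7 replicate 3. Atp5g1, 1 of the 3 subunit c genes (chr11, 96068852 to 96075670), stood at 82.8, 87.3, 139 and 84.1 CPM in Nudt7 livers and at 77.3, 78.9, 75.8 and 79.3 CPM in GFP livers. In CPM the groups were separate. Its GFP livers were the tightest of all members in CPM, with a coefficient of variation of 2.09% where the median member had 6.53% and the median gene tested 13.5%. In TPM its groups overlapped, with 254 TPM in Nudt7 replicate 4 and 258 TPM in GFP replicate 3. The log2 fold change was 0.34 (SE 0.17, 95% interval −0.03 to 0.71, adjusted p = 0.637), and 0.13 without the third liver (95% interval −0.05 to 0.32, adjusted p = 0.761).

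Among the genes for subunit c, Atp5g3 held most of the transcript, at 1086, 1122, 1495 and 834 TPM in the Nudt7 group and 964, 1082, 1050 and 1106 TPM in the GFP group. Atp5g1 stood at 236 to 327 TPM and Atp5g2 at 15.7 to 31.05 TPM over the 8 livers, so that the order of the 3 genes was the same in each liver. Atp5g3 was also the most abundant nuclear member of all 4 complexes. Its log2 fold change of 0.34 (SE 0.25) and that of Atp5g2 of 0.32 (SE 0.24) became 0.00 and 0.22 without the third liver. Atp5g2 shared 37.5% of its words of 31 bases with other genes' transcripts, the most of any nuclear member tested, so its level is the least certain of the 3. Of the 42 nuclear members tested, 13 shared over 10% of their words and 14 shared none.

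Of the catalytic head, Atp5c1, the central stalk subunit gamma, stood at 265, 274, 397 and 289 TPM in the Nudt7 group and at 266.5, 276, 261 and 266 TPM in the GFP group (log2 fold change 0.39, SE 0.22, adjusted p = 0.664; 0.09 without the third liver). Atp5a1 and Atp5b, subunits alpha and beta, which form the head, had small fold changes, 0.15 (SE 0.15) and 0.14 (SE 0.16), and 0.02 and −0.01 without the third liver. Their transcripts average 2441 and 1823 bases, long for this set. Atp5k, a small membrane subunit of 372 bases, stood at 341, 303, 630 and 335 TPM against 315, 358, 340 and 320 TPM (0.46, SE 0.28, adjusted p = 0.676; 0.02 without the third liver).

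Atp5e, the small subunit epsilon of the stalk, was picked out after its values were seen because it varied most among the Nudt7 livers of the nuclear members. It stood at 371, 369, 980 and 196 TPM there and at 334, 396, 314 and 315 TPM in GFP livers, so that the third Nudt7 liver was the highest of the 8 and the fourth the lowest. Its log2 fold change was 0.76 with a wide interval (95% interval −0.35 to 1.87, adjusted p = 0.694) and −0.07 without the third liver. Atp5s, a coupling factor that is no structural subunit, was the least abundant tested member of complex V at 7.19 to 13.9 TPM. The second entry named Atp5o (91684398 to 91926982 on chromosome 16) was listed at 0 in all 8 livers, and the main Atp5o gene, the peripheral stalk subunit that confers oligomycin sensitivity, stood at 207 to 340 TPM.

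The 6 mitochondrially encoded members did not share the high levels of Nudt7 replicate 3. Their median deviation from the GFP mean was −0.17 in that liver, 0.52 in Nudt7 replicate 4 and −0.25 to 0.34 in the other 6, GFP livers included, so that Nudt7 replicate 4 was the high library for these genes. Their median log2 fold change was 0.06, with 5 of 6 positive, and leaving out replicate 3 raised it to 0.17, with 6 of 6 positive, whereas the median of the nuclear members went from 0.33 to 0.02. mt-Cytb, cytochrome b of complex III (chrM, 14145 to 15288), stood at 9487, 9446, 9237 and 13515 CPM in Nudt7 livers and at 10286, 8132, 7813 and 12058 CPM in GFP livers (log2 fold change 0.12, SE 0.20, adjusted p = 0.872). mt-Co1, the subunit of complex IV that holds the oxygen-reducing centre, stood at 20876, 21033, 20550 and 28533 CPM against 21456, 16938, 16147 and 24793 CPM (0.20, SE 0.20, adjusted p = 0.785). The groups overlapped for both genes, and without the third liver the fold changes were 0.19 and 0.25. The level of mt-Co1 is uncertain, because it shared 63.9% of its words with other genes' transcripts, 45.2% with the pseudogene Gm13340. No single copy shared 50% of them, the share that makes a copy here, so mt-Co1 was not summed with any. How its fold changes depend on these shared reads was not tested.

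mt-Co2 and mt-Co3, the other core subunits of complex IV, differed between the groups by 0.08 (SE 0.20, adjusted p = 0.925) and 0.04 (SE 0.18, adjusted p = 0.968) log2 units, and by 0.07 and 0.15 without the third liver. mt-Co2 stood at 4634, 4441, 5906 and 7653 CPM in Nudt7 livers and at 5720, 4815, 4530 and 6363 CPM in GFP livers. mt-Co3 stood at 6355, 6021, 5094 and 8523 CPM against 7055, 5992, 5621 and 6699 CPM. These levels are uncertain, because the copy shown above received 16.5% to 34.3% of the reads of mt-Co2 and Gm28661 together, and 1.94% to 28.0% of those of mt-Co3 and Gm28437, by library. Summed with their copies, mt-Co2 was at −0.01 (95% interval −0.39 to 0.36) and mt-Co3 at −0.04 (95% interval −0.39 to 0.32).

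mt-Atp6, the proton channel subunit, stood at 7188, 6832, 5620 and 9483 CPM in Nudt7 livers and at 7307, 6222, 6429 and 9001 CPM in GFP livers (log2 fold change 0.01, SE 0.20, adjusted p = 0.993; 0.12 without the third liver), and its copy received 0% to 2.14% of the reads. mt-Atp8, its small partner, stood at 27889, 24846, 3777 and 35866 TPM in the Nudt7 group and at 28448, 20770, 20184 and 32783 TPM in the GFP group. The third Nudt7 liver was far below the other 7, with 228 CPM against 908 to 1995, and the log2 fold change was −0.03 with a wide interval (95% interval −1.12 to 1.06, adjusted p = 0.989), and 0.32 (95% interval −0.23 to 0.88) without that liver. Its transcript of 204 bases is the shortest of the members. The effective length by which its reads are divided in TPM was only 61 to 72.6 bases. In CPM it was the lowest of the mitochondrially encoded members in each liver. Its TPM is part of the sums that follow. The mitochondrially encoded members together held 3.33 times the summed TPM of the nuclear members in Nudt7 replicate 3, 8.17, 7.72 and 11.2 times in the other Nudt7 livers, and 9.33, 6.74, 6.87 and 9.33 times in the GFP livers.

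**Figure D3:**
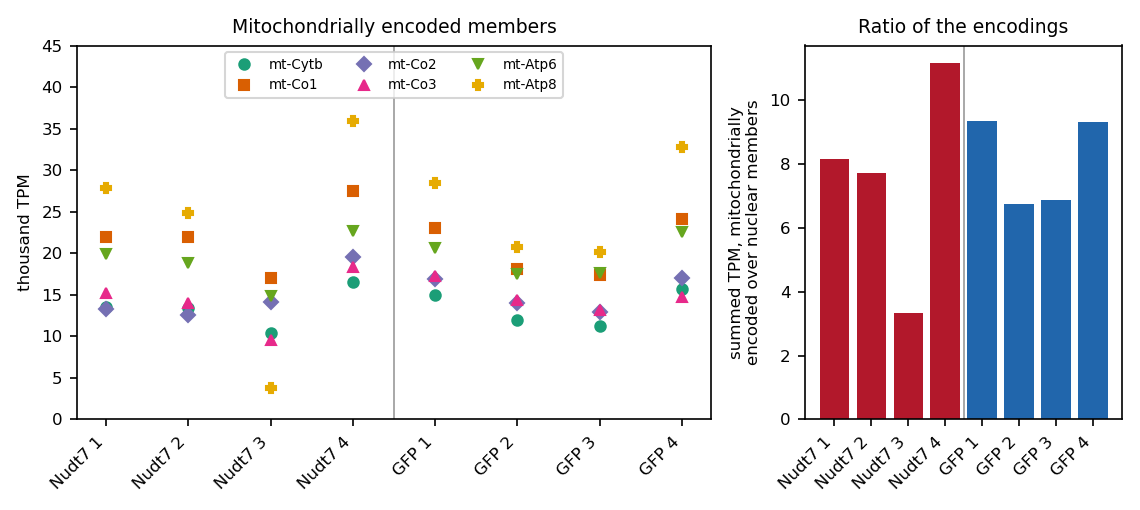
Left, TPM divided by 1000 of the 6 mitochondrially encoded members in each liver; right, their summed TPM divided by that of the nuclear members, as bars from 0 (red for Nudt7, blue for GFP). In TPM mt-Atp8 is the highest of the 6 in 7 livers and the lowest, at 3777 TPM, in Nudt7 replicate 3, where the ratio is 3.33. Its rank depends on the length correction, since in CPM it is the lowest of the 6 in each liver.

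The intervals show what the design could have missed. With all 8 livers the 95% interval of the log2 fold change lay within −1 to 1 for 35 of the 48 members, and without Nudt7 replicate 3 it did so for 47, Cox6b2 being the exception. Without that liver the interval lay within a 1.5-fold change either way for 43 members, and the other 5 were Cox6b2, Atp5g2, mt-Cytb, mt-Co1 and mt-Atp8. These narrower intervals come from a fit that leaves out the liver that stood apart, so they are not those of the full design. The summed level of the 55 members was 122117 ± 25570 TPM with Nudt7 and 122951 ± 16935 TPM with GFP (SD, n = 4 each), and 132585 ± 17980 TPM in the 3 Nudt7 livers other than replicate 3. Most of this sum came from the 6 mitochondrially encoded members, at 106890 ± 29043 and 109351 ± 17212 TPM. The 49 nuclear members summed to 15227 ± 3856 TPM with Nudt7 and 13600 ± 553 TPM with GFP. Their sum was 13317 ± 631 TPM in the 3 Nudt7 livers other than replicate 3.

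**Figure D4:**
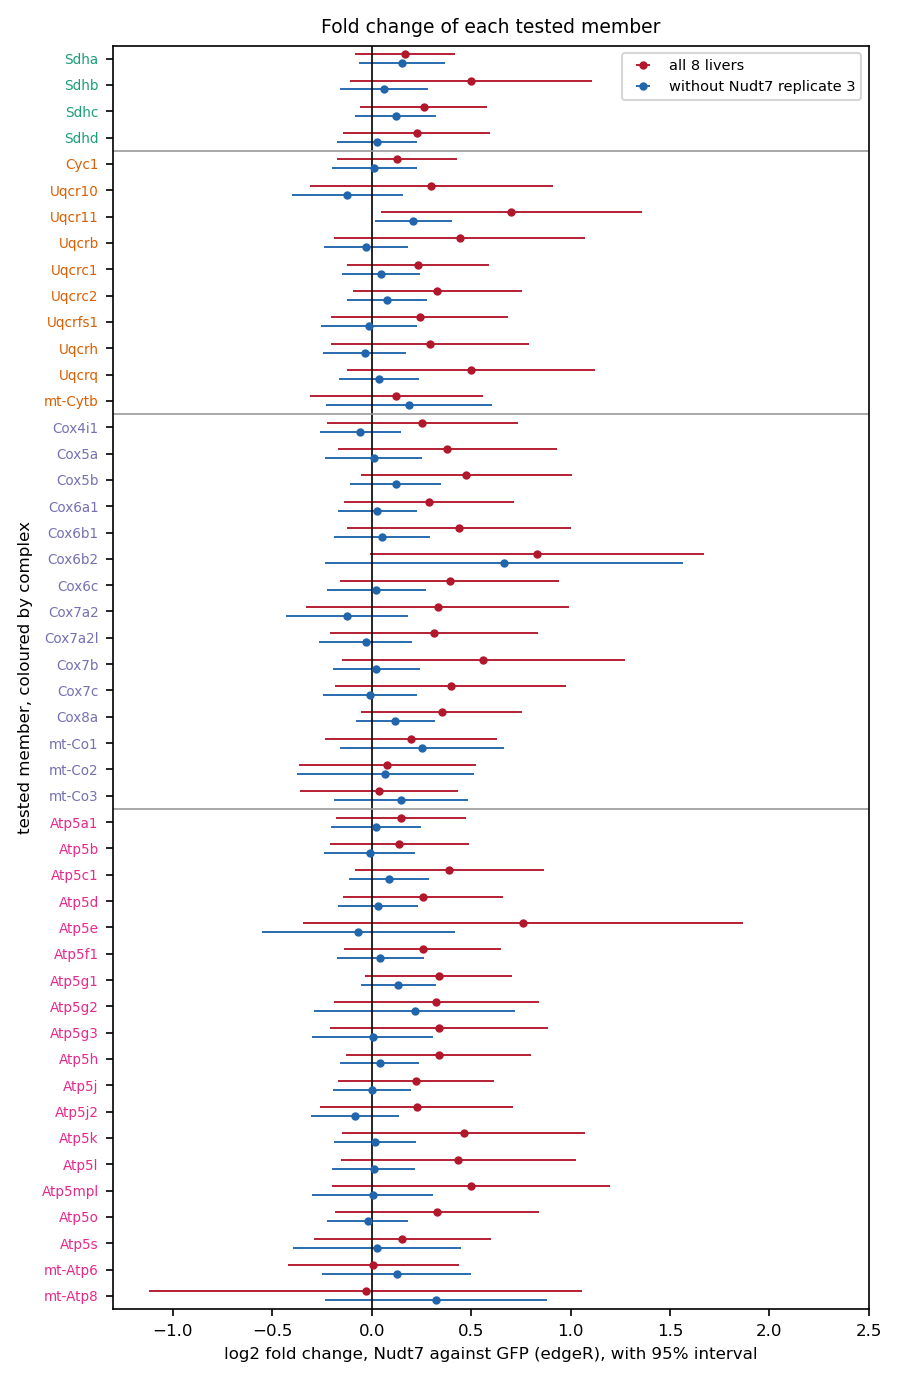
Log2 fold change between Nudt7 and GFP livers for each tested member (rows, coloured and ruled by complex), with its 95% interval from edgeR, for all 8 livers (red) and without Nudt7 replicate 3 (blue). Red points lie right of 0 for 47 of 48 members, and blue points have a median of 0.03, with Cox6b2 (0.67) and mt-Atp8 (0.32) farthest to the right. The blue interval is the shorter one for the members other than Cox6b2.

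Shorter transcripts had the larger fold changes. Among the 42 nuclear members the log2 fold change went down with the logarithm of length (Pearson's r = −0.63, Spearman's rho = −0.69 across genes, which share the 8 libraries and are not independent). Without Nudt7 replicate 3 the values were −0.00 and 0.18. In that liver the median deviation from the GFP mean was 1.23 log2 units for the 15 nuclear members under 600 bases, 0.99 for 13 of 600 to under 1000, 0.78 for 9 of 1000 to under 1500 and 0.54 for the 5 of 1500 or more. All nuclear genes tested in the same classes had medians of 0.73, 0.68, 0.40 and −0.13 there. The nuclear members were thus short, with a median of 727 bases against 2392 for all genes tested. In each class their median lay above that of all nuclear genes tested, a difference that was not tested. The classes match length only roughly. At 1500 or more bases the median length was 1852 for the members and 2863 for all nuclear genes tested.

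With a smooth trend on length removed from each library, the median log2 fold change of the members was 0.10, 41 of 48 were positive and 0 passed. Of all genes tested, 50.2% were positive in this fit. The nuclear members were positive in 39 of 42 cases (median 0.10), and the mitochondrially encoded members in 2 of 6 (median −0.08). The trend and Nudt7 replicate 3 removed together gave a median of 0.03 over the 48 members. The highest Nudt7 level and the highest red blood cell and Kupffer cell marker levels were in the same liver as the shift, and their part in it was not tested.

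**Figure D5:**
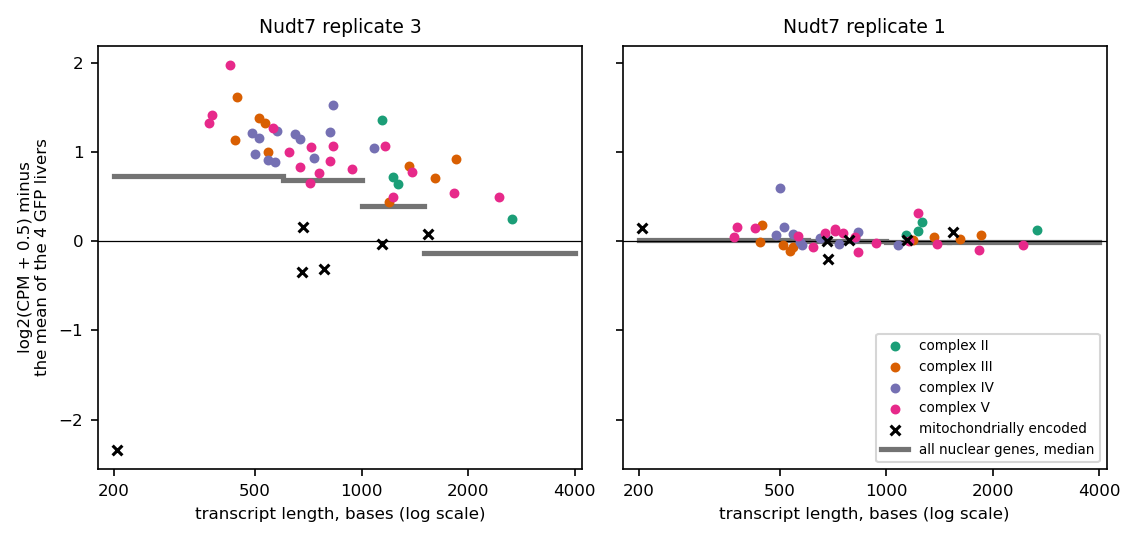
Deviation of each tested member from the mean of the 4 GFP livers, in log2(CPM + 0.5), against transcript length in bases (log scale), in Nudt7 replicate 3 (left) and, for comparison, Nudt7 replicate 1 (right). Points are nuclear members by complex, crosses are mitochondrially encoded members, and grey bars are medians of all nuclear genes tested in 4 length classes; on the left the bars step from 0.73 down to −0.13 and most points lie above them, and on the right both lie near 0.

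Genes that assemble or feed these complexes were read from lists of their own, and 0 of their tested members passed in any list. Median log2 fold changes were 0.21 for 4 assembly factors of complex II, 0.19 for 6 of complex III, 0.25 for 24 of complex IV and 0.26 for 6 assembly and control factors of complex V. Without Nudt7 replicate 3 they were −0.02, 0.08, 0.01 and −0.02. The complex IV list also holds Ndufa4, a subunit of that complex whose symbol the rule does not match. The complex V list likewise holds the subunit Usmg5, described below. Cox15, which makes the heme A of complex IV, stood at 35.0, 29.7, 34.5 and 32.0 CPM in Nudt7 livers and at 28.1, 24.4, 25.2 and 26.3 CPM in GFP livers. Its groups were thus separate in CPM. In TPM they overlapped, at 16.5, 10.8, 9.66 and 12.7 in Nudt7 livers against 10.2, 9.55, 10.5 and 10.6 in GFP livers. Its log2 fold change was 0.33 (SE 0.11, edgeR unadjusted p = 0.0107, adjusted p = 0.439) and 0.32 without the third liver (adjusted p = 0.340), so that the value did not rest on that library. Uqcc2 and Cox16, assembly factors of complexes III and IV, were at 0.62 (SE 0.25, adjusted p = 0.555) and 0.43 (SE 0.17, adjusted p = 0.547), and at 0.32 and 0.24 without it.

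Usmg5, a small subunit of the ATP synthase whose symbol the rule does not match, stood at 56.8, 58.6, 182 and 46.001 CPM in Nudt7 livers and at 55.2, 60.03, 44.8 and 55.2 CPM in GFP livers. It thus had the pattern of the short nuclear members, with the third liver high, and its log2 fold change of 0.67 (SE 0.39, adjusted p = 0.667) was 0.01 without that liver. Atpaf2, an assembly factor of the catalytic head, was at 0.23 in the full set (SE 0.12, adjusted p = 0.639) and at 0.22 without the third liver.

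Ubiquinone synthesis genes (13 tested, 9 positive) had a median of 0.15, and of 0.05 without Nudt7 replicate 3. Coq7, an enzyme of that pathway, was at 0.30 (SE 0.13, adjusted p = 0.589) and Coq10b, a ubiquinone-binding protein gene, at −0.44 (SE 0.20, adjusted p = 0.5995), and they were at 0.23 and −0.42 without it. Of 7 genes that bring electrons to ubiquinone or carry them onward, 6 were positive. Gpd2, the mitochondrial glycerol-3-phosphate dehydrogenase, was at 112, 116, 90.9 and 89.98 CPM against 69.5, 83.5, 72.7 and 95.6 CPM, and its log2 fold change was 0.35 (SE 0.14, adjusted p = 0.568), or 0.41 without the third liver. Etfdh, which passes electrons from fat oxidation to ubiquinone, was at 0.32 (SE 0.14, adjusted p = 0.576) and 0.26 without it. Cycs, cytochrome c, was at 0.24 (SE 0.16, adjusted p = 0.697) and 0.09. The groups overlapped for Gpd2 and Etfdh.

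Of the 20 genes of mitochondrial gene expression and biogenesis 7 were positive and 13 negative, with a median of −0.10, or −0.06 without the third liver. Positive fold changes were found for 49.8% of all genes tested and for 43.8% of nuclear genes of 1500 or more bases. The list was not compared with genes of its own lengths. Ppargc1a, the coactivator PGC-1 alpha that drives mitochondrial biogenesis and is induced in the fasted liver, stood at 15.6, 9.98, 13.0 and 18.6 CPM in Nudt7 livers and at 35.0, 32.9, 16.8 and 12.4 CPM in GFP livers. The GFP livers spread widely and the groups overlapped, and the log2 fold change of −0.75 (SE 0.32, edgeR unadjusted p = 0.0384, adjusted p = 0.581) did not pass, and was −0.69 without the third liver. Pprc1, a related coactivator, was at −0.40 (SE 0.17, adjusted p = 0.581) and Polg, the mitochondrial DNA polymerase, at −0.34 (SE 0.15, adjusted p = 0.581), with −0.34 and −0.27 without the third liver. Slirp, which binds mitochondrial mRNA, was at 0.76 (SE 0.32, adjusted p = 0.581) and 0.24 without the third liver. The other mitochondrially encoded genes, those of complex I, had a median of 0.10 over 7 genes and 0.26 without the third liver, with mt-Nd3 lowest at −0.32 (SE 0.16, adjusted p = 0.641), or −0.25 without that liver.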

How the data were processed

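FastQC, Salmon and DESeq2, with build GRCm38, are named as the authors' tools in the submitters' processing notes; the sources used here do not give Salmon's version, index or strand setting. The kit was stranded, with 500 ng of RNA and 9 PCR cycles, per the labels. Each deposited file lists 109282 transcripts with, per its header, estimated counts (not normalized), TPM and effective length. GENCODE M21 named 98.8% of them. The rest held 0.552% to 1.06% of reads and was dropped. Gene sums of estimated counts were rounded. The test was edgeR 4.0.16 (quasi-likelihood, robust, TMM, filterByExpr; R 4.3.3), two-sided, without covariates, adjusted over 13678 genes at 0.05; it was tested on simulated data. DESeq2 1.42.0, limma 3.58.1 (voom), scaling, filter, transcript length and left-out libraries were alternatives. Copies were found by shared words of 31 bases. The NRF1 letters searched in promoters are a shortened form, chosen after the result of a longer form had been seen; the longer form is not reported. CPM and its fold changes are not corrected for length, and TPM is; levels of different genes are compared in TPM.

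The members and lists were chosen with earlier results of these data known. Values are given by rule for the 3 nuclear members per complex with the smallest p (for complex II all 4), all 6 mitochondrially encoded members, the most and least abundant tested member per complex, families with several forms, up to 3 genes per pathway list, Cycs, Ppargc1a and Nudt7. Replicates are different mice, numbered in accession order.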

Additional observations from a re-analysis of the deposited data

Results flagged for a closer look

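Within each group of 4 livers, the gap between the most extreme value and its neighbour was compared with the whole range (Dixon's test at 95%) for the TPM of the 48 tested members. Of 96 groups, 15 were past the value, and chance gives about 1 in 20. In 14 of the 15 the extreme liver was Nudt7 replicate 3, always as the highest of the Nudt7 livers. In complex III these were Uqcr11 at 655 TPM, Uqcrb at 693, Uqcrc2 at 217, Uqcrh at 592 and Uqcrq at 986. In complex IV they were Cox4i1 at 729 TPM, Cox5b at 492, Cox6a1 at 671, Cox7a2l at 199, Cox7b at 510.4 and Cox7c at 1040 (1039.8). In complex V they were Atp5k at 629.8 TPM, Atp5l at 858 and Atp5o at 340.2. The remaining one was Sdhb in GFP replicate 2, the highest of its group at 143.9 TPM. The genes share a library, so the 14 are not independent of each other.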

How the results depend on the processing

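The count of 0 members passing held under each of the 20 alternatives, the summing of near-identical copies among them. The lowest adjusted p of any member under any of them was 0.313. At most 10 members had an unadjusted p under 0.05 (without Nudt7 replicate 4), with 6 without Nudt7 replicate 1 and 3 without Nudt7 replicate 2. These 3 fits keep Nudt7 replicate 3. The shares of all genes with such a p in them are not given here, so these counts have no background beside them. Over all genes the number passing was 16, and it was 27 with no filter on low counts, 152 by DESeq2, 8 by limma-voom, 103 by limma-voom with sample quality weights, 34 with the length trend removed, 10 with effective length offsets, 3 with the most abundant transcript of each gene alone, and 2 to 16 with 1 liver left out. The median of complex V was 0.023 without Nudt7 replicate 3, up to 0.41 with another liver left out, and 0.025 when the length trend was removed as well, a combination chosen after seeing the data. Of 379 values of the 19 named members under other settings 0 passed, 35 moved by 1 SE or more and 17 had the opposite sign. No paired analysis was possible because the labels give the livers no shared numbers. PCR duplicates cannot be told from independent molecules, and estimated counts of the mitochondrially encoded members depend on how reads shared with the chromosome 1 copy were assigned. Those of mt-Co1 also depend on how reads shared with Gm13340 and other transcripts were assigned.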
